A study of Mus musculus with 4 samples.

Results

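The genes of bone morphogenetic protein (BMP) signaling described here are 10 listed members: the ligands Bmp2, Bmp4 and Bmp7, the receptors Bmpr1a, Acvr1 and Bmpr2, the signal transducer Smad1, and the inhibitors Smad6, Bambi and Nog. They were chosen by name, with earlier results of these data known. All 10 were found among the 37620 Ensembl gene identifiers counted in every sample. RNA‐seq libraries of 4 samples were compared, with 1 sample per condition and no replicates. R1 mouse embryonic stem cells (mESCs) were kept for 2 days without feeders in serum medium. The 2i−L sample, whose label reads 2i, received PD0325901 (1 µM), which inhibits MEK, and CHIR99021 (3 µM), which inhibits GSK3, without LIF. The 2iJ sample carried the same pair of inhibitors plus a JAK inhibitor at 2 µM. The 2iJ+B−A sample carried all of these plus BMP4 protein at 10 ng/ml and ALK5 inhibitor II at 10 µM. This inhibitor is named for the TGF‐β type I receptor ALK5, and the paper describes its target as the Activin receptors ALK4, ALK5 and ALK7. BMP4 and the ALK5 inhibitor were always given together in these samples, so their effects cannot be told apart. The last sample was the trophoblast stem cell (TSC) line F4, whose label also reads day 2. TSCs differ from the mESC samples in line and in medium, which cannot be told apart from cell type.

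BMP ligands are secreted dimers that bring together type I and type II receptors, both of them serine/threonine kinases, at the cell surface. The type II receptor phosphorylates the type I receptor, which phosphorylates SMAD1 and its close relatives. These enter the nucleus with SMAD4 and switch on targets such as the Id genes. The pathway also switches on its own brakes: SMAD6 blocks SMAD1 inside the cell, BAMBI is a receptor‐like membrane protein without a kinase domain, and Noggin (Nog) binds BMPs outside the cell. In mESCs, BMP is known to support self‐renewal together with LIF. In the early mouse embryo, BMP4 made by the extraembryonic ectoderm, which descends from the same lineage as TSCs, acts on the neighboring epiblast.

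Between 33913984 and 36964392 read pairs were counted on genes per sample. Levels are given as CPM, counts per 1000000 of TMM‐scaled library size, with exact Poisson 95% intervals. In every sample, 3 counts, the smallest signal taken as detectable, were between 0.0799 and 0.0902 CPM. Differences are log2 ratios after adding 0.5 CPM to both levels, with 95% Clopper–Pearson intervals. All of these intervals cover counting error only, because 1 sample per condition leaves the spread between cultures unknown, and no p-value is given. A gene was taken as past the limit when its ratio was at least 2‐fold (1 on the log2 scale). Over all genes, 2.15% were past it between 2iJ and 2i−L, 8.97% between 2iJ+B−A and 2iJ, 37.0% between TSCs and 2iJ, and 32.6% between TSCs and 2iJ+B−A. All 10 members reached 1 CPM in at least 1 sample and so passed the filter that left 14263 genes. Bmp2 passed through the 2iJ+B−A sample alone, so it had to be higher there.

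Markers were checked against the sample labels. Pou5f1 (Oct4) was at 899 CPM in 2i−L, at 885 in 2iJ, at 658 in 2iJ+B−A and at 1.34 in TSCs, although its transcript also matches other places in the genome. Elf5, a defining TSC transcription factor gene, was at 298 CPM in TSCs and at or below 0.133 CPM in the mESC samples. The 7 fibroblast markers, listed because TSC lines can be grown on feeder cells, summed to 37.6 CPM in 2i−L, then 36.4 for 2iJ, 21.1 for 2iJ+B−A and 3.50 for TSCs. Col1a2, Dcn and Lum were at 0 counts in TSCs, and Lum also in 2i−L. The 6 primitive endoderm markers summed to 10.2, 19.0, 40.7 and 52.3 CPM in the same order of samples. Dab2 led this list in the mESC samples and Gata4 (23.5 CPM) in TSCs. Sox17 was highest in 2iJ+B−A (2.32 CPM) and lowest in TSCs (0.142 CPM). The 6 mesoderm markers summed to 18.9, 16.5, 109 and 587 CPM. Hand1 led this list in 2iJ+B−A (103.5 CPM) and TSCs (383 CPM), Eomes led it in 2i−L and 2iJ, and trophoblast also expresses both. From 2iJ to 2iJ+B−A, T went from 2.85 to 0.160 CPM, Mixl1 from 0.728 to 0.479 and Kdr from 0.874 to 2.21. The TSC list, with 6 of its 7 genes found, summed to 112, 160, 712 and 1892 CPM, and the 6 mESC markers to 3259, 2746, 1904 and 287 CPM. Krt8 alone was at 553 CPM in 2iJ+B−A, and 96.0% of its transcript also matches other places. Cdx2, Gata3 and Hand1 were also higher in 2iJ+B−A than in 2iJ. Eomes, also on the TSC list, went the other way, from 10.7 CPM in 2iJ to 2.74 in 2iJ+B−A. Among the mESC markers, Klf4 was higher in 2iJ+B−A (73.1 CPM) than in 2iJ (32.2) and 2i−L (66.2). Pou5f1, Nanog, Sox2, Zfp42 and Tdgf1 were lower in 2iJ+B−A than in 2iJ. Most of the mESC marker sum in TSCs came from Sox2 (154 CPM) and Zfp42 (123 CPM). Other places in the genome also match transcripts of Zfp42 (98.7%), Tdgf1 (95.8%), Nanog (71.2%) and Klf4 (42.5%). Of the differentiated trophoblast list, 5 of 6 genes were found, and all but Gcm1 were at 0 counts in the mESC samples. Gcm1 was at 1.44 CPM in 2i−L, at 5.62 in 2iJ and at 28.0 in 2iJ+B−A. In TSCs it was at 0.399 CPM, where Prl3d1 (1.57) and Ctsq (1.48) were the highest of this list. The transcripts of Prl3d1 (99.8%), Prl2c2 (99.9%), Tpbpa (97.7%) and Gcm1 (74.1%) also match other places, so their counts are uncertain. These lists moved with the differences between samples given here, and their part in them was not tested. In such bulk samples, fewer cells expressing a gene and less RNA per cell cannot be told apart.

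Sequences upstream of the start site are shown for Bmp4 and Smad6, which were past the limit in 2iJ+B−A, and for Smad1 and Acvr1, which stayed within it, so that known SMAD motifs can be read side by side. RefSeq promoters (GRCm38.p6) were at hand for 6 of the 10 members, and each run below holds the 250 bases before the start, 5′ to 3′ on the gene's strand. Capitals mark GGCGCC and GGAGCC, GC‐rich motifs bound by SMAD1, and CAGAC, which holds the core of the general SMAD motif. All were searched on both strands.
Bmp4 (chr14:46390670-46390919, minus strand): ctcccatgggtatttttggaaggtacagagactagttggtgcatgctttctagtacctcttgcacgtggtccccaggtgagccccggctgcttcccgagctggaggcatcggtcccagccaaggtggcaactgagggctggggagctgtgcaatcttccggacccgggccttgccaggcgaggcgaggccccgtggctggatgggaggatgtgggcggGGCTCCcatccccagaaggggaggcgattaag
Smad6 (chr9:64022060-64022309, minus strand): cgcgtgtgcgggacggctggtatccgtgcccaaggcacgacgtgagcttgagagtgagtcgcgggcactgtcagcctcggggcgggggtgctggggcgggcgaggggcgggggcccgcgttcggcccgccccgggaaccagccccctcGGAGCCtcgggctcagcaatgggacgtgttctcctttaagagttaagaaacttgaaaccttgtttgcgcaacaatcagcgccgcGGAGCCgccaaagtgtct
Smad1 (chr8:79399429-79399678, minus strand): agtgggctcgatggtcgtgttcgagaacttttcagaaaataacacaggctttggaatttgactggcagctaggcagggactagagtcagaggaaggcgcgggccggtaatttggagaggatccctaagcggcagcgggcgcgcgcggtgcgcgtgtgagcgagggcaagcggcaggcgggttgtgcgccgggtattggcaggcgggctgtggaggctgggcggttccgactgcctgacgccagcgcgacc
Acvr1 (chr2:58566829-58567078, minus strand): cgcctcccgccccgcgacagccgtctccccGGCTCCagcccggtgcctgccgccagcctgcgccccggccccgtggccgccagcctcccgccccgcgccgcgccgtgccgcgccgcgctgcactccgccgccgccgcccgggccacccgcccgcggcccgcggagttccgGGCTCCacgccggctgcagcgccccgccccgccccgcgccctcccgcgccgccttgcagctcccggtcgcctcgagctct

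GGAGCC stood once in the Bmp4 window, starting at position −32 from the start, and 2 times in the Smad6 window, at −102 and −18. It also stood 2 times in the window of Acvr1, whose level was lower in 2iJ+B−A. The Smad1 window held none of the 3 motifs. GGCGCC was found once in the window of Bmpr1a and once in that of Bmpr2, and CAGAC in none of the 6. Of 32841 RefSeq promoter windows of the same length, 9.59% held GGCGCC, 26.0% GGAGCC and 42.2% CAGAC. Windows with GGAGCC thus belonged to members on both sides of the limit, and a match is not shown to be a binding site.

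Among the ligands, Bmp4 and Bmp2 were higher in 2iJ+B−A than in either of the other mESC samples, and Bmp7 was higher than in 2iJ by less than the limit. Bmp4 (ENSMUSG00000021835, chromosome 14 from 47003195 to 47010344 of NCBIM37, minus strand) encodes the ligand that was also added as protein to the 2iJ+B−A medium, and the counts are of the cells' own mRNA. It was at 5.50 CPM in 2i−L, at 5.48 in 2iJ, at 17.5 in 2iJ+B−A and at 25.6 in TSCs. The 2i−L and 2iJ levels had overlapping intervals, and both lay below those of 2iJ+B−A and TSCs. Over 2iJ, the 2iJ+B−A level had a log2 ratio of 1.59 (interval 1.37 to 1.82), or 3.20‐fold in CPM, and only 2.00% of genes had a higher ratio. An annotated gene on the opposite strand, Gm15217, overlaps Bmp4 exons by 89 bases, and the counts used here are of the Bmp4 strand.

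Bmp2 (ENSMUSG00000027358, chromosome 2 from 133377895 to 133388621, plus strand), the closest relative of Bmp4, had low counts in all samples. Its counts were 26 in 2i−L, then 32 for 2iJ, 149 for 2iJ+B−A and 8 for TSCs, or 0.782, 0.932, 3.97 and 0.228 CPM. The 2iJ+B−A interval (3.36 to 4.66 CPM) stood clear of the other mESC samples, and TSCs were lowest. Relative to 2iJ, the log2 ratio in 2iJ+B−A was 1.64 (interval 1.24 to 2.03). Bmp2 and Bmp4 thus went the same way with BMP4 and the ALK5 inhibitor and opposite ways in TSCs, where the log2 ratios to 2iJ were −0.98 (interval −1.37 to −0.46) for Bmp2 and 2.12 (interval 1.91 to 2.34) for Bmp4. With a pseudocount of 0.1 CPM, Bmp2 in TSCs passed the limit at −1.65.

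Bmp7 (ENSMUSG00000008999, chromosome 2 from 172693513 to 172765822, minus strand), a ligand of a separate BMP subgroup, was at 9.92 CPM in 2i−L, at 7.16 in 2iJ, at 12.0 in 2iJ+B−A and at 14.2 in TSCs. It was lowest in 2iJ, and the intervals of 2i−L and 2iJ+B−A overlapped slightly. The log2 ratio of 2iJ+B−A was 0.70 (interval 0.49 to 0.92) to 2iJ and 0.26 (interval 0.06 to 0.46) to 2i−L, so the size of the difference depended on the reference sample. In TSCs the log2 ratio to 2iJ was 0.94, just inside the limit, and it reached 1.02 when only library size was used for scaling.

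**Figure D1:**
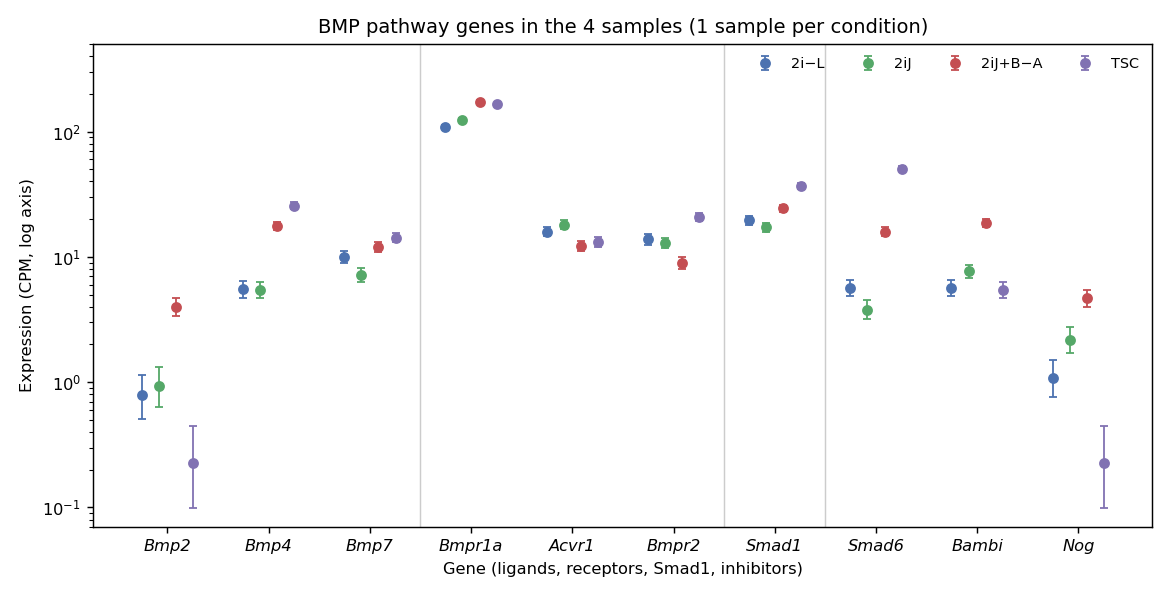
CPM of each of the 10 members on a log axis, by sample, with 1 point per sample and bars for the exact Poisson 95% interval of the count. Bmpr1a lies above 100 CPM in every sample, Smad6 and Bmp4 are highest in TSCs, and Bmp2 and Nog are highest in 2iJ+B−A (3.97 and 4.66 CPM) and lowest in TSCs (0.228 CPM each).

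Among the receptors, none was past the limit between any pair of mESC samples compared, and their directions differed. Bmpr1a (ENSMUSG00000021796, chromosome 14 from 35223920 to 35316527, minus strand), the type I receptor through which BMP2 and BMP4 mainly signal, was at 108 CPM in 2i−L, at 124 in 2iJ, at 173 in 2iJ+B−A and at 166 in TSCs. At this depth the mESC samples had separate intervals, and 2iJ+B−A was the highest of the 4, with an interval that overlapped that of TSCs. With 2iJ as the reference, the log2 ratio was 0.47 (interval 0.42 to 0.53), a 1.39‐fold difference in CPM. The exons of Bmpr1a overlap those of Gm17110 on the opposite strand by 290 bases.

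Acvr1 (ENSMUSG00000026836, chromosome 2 from 58241055 to 58419568, minus strand), which encodes the type I receptor ALK2, used mostly by BMP7 and its relatives, was at 15.9 CPM in 2i−L, at 18.1 in 2iJ, at 12.2 in 2iJ+B−A and at 13.1 in TSCs. The levels of 2iJ+B−A and TSCs overlapped and lay below those of the other mESC samples. Acvr1 was lower in 2iJ+B−A than in 2iJ, with a log2 ratio of −0.55 (interval −0.72 to −0.38). Bmpr2 (ENSMUSG00000067336, chromosome 1 from 59821481 to 59927703, plus strand), the BMP type II receptor, was at 13.8 CPM in 2i−L, at 12.9 in 2iJ, at 8.94 in 2iJ+B−A and at 20.9 in TSCs. Its lowest level was in 2iJ+B−A and its highest in TSCs, with log2 ratios of −0.50 (interval −0.70 to −0.30) for 2iJ+B−A to 2iJ and 1.18 (interval 1.00 to 1.36) for TSCs to 2iJ+B−A.

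The type I receptor Bmpr1a and the other receptors thus moved in opposite directions in 2iJ+B−A. Per kilobase of exon, the level of Bmpr1a was 5.24 times that of Acvr1 in 2iJ and 10.8 times in 2iJ+B−A, and 5.34 and 10.7 times that of Bmpr2. Exon length here and below is that of all annotated exons of a gene merged. Bmpr1a made up 70.3% of the summed level per length of the 3 receptors in 2i−L, then 72.5% for 2iJ, 84.3% for 2iJ+B−A and 75.05% for TSCs.

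Smad1 (ENSMUSG00000031681, chromosome 8 from 81862294 to 81923417, minus strand), the transducer phosphorylated by these receptors, was at 19.6 CPM in 2i−L, at 17.2 in 2iJ, at 24.4 in 2iJ+B−A and at 36.8 in TSCs. TSCs were highest, 2iJ+B−A came next and the other mESC samples had overlapping intervals. The log2 ratio was 0.49 (interval 0.34 to 0.64) for 2iJ+B−A to 2iJ and 1.07 (interval 0.93 to 1.21) for TSCs to 2iJ. With 2i−L as the reference in place of 2iJ, the TSC ratio was 0.89 and no longer past the limit.

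The inhibitors inside and at the surface of the cell were both past the limit in 2iJ+B−A and differed in TSCs. Smad6 (ENSMUSG00000036867, chromosome 9 from 63800953 to 63869866, minus strand), the inhibitory SMAD, was at 5.68 CPM in 2i−L, at 3.79 in 2iJ, at 15.9 in 2iJ+B−A and at 50.7 in TSCs. The 4 samples had separate intervals, with 2iJ lowest. The log2 ratio of 2iJ to 2i−L was −0.53 (interval −0.83 to −0.23), that for 2iJ+B−A over 2iJ 1.94 (interval 1.69 to 2.19) and that of TSCs to 2iJ 3.58 (interval 3.35 to 3.82). In 2iJ+B−A, 1.13% of genes had a higher ratio to 2iJ. Because 2iJ was lowest, the ratio of 2iJ+B−A to 2i−L was smaller, at 1.41.

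Bambi (ENSMUSG00000024232, on chromosome 18), the decoy receptor, was at 5.62 CPM in 2i−L, at 7.66 in 2iJ, at 18.7 in 2iJ+B−A and at 5.47 in TSCs. The 2iJ+B−A sample stood alone, and the TSC and 2i−L intervals overlapped. The log2 ratio of 2iJ+B−A was 1.23 (interval 1.03 to 1.43) to 2iJ and 1.65 (interval 1.43 to 1.87) to 2i−L. That of TSCs to 2iJ+B−A was −1.68 (interval −1.90 to −1.47), against 1.64 (interval 1.51 to 1.78) for Smad6, so these inhibitors parted between the mESC sample given BMP4 and TSCs. Per kilobase of exon, the level of Smad6 was 0.407 times that of Smad1 in 2iJ, 1.21 times in 2iJ+B−A and 2.56 times in TSCs. These ratios depend on the lengths used, 3137 bases for Smad6 and 5814 for Smad1. Their longest coding transcripts have 2901 and 3775 bases, so which gene was higher in 2iJ+B−A is uncertain.

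Nog (ENSMUSG00000048616, chromosome 11 from 89161952 to 89163873, minus strand) encodes Noggin, the secreted antagonist, from a single exon. Its counts were 36 in 2i−L, then 75 for 2iJ, 175 for 2iJ+B−A and 8 for TSCs, or 1.08, 2.18, 4.66 and 0.228 CPM. Each of the 4 intervals was separate, with 2iJ+B−A highest. The log2 ratio of 2iJ to 2i−L was 0.76 (interval 0.32 to 1.19), the highest of the 10 members in that comparison, and 2.99% of genes had a higher one. The log2 ratio for 2iJ+B−A over 2iJ was 0.94 (interval 0.60 to 1.28), inside the limit, although its CPM was 2.13‐fold higher, and it reached 1.06 with a pseudocount of 0.1 CPM. To 2i−L it was 1.71 (interval 1.31 to 2.09). In TSCs the log2 ratio to 2iJ was −1.88 (interval −2.23 to −1.42).

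**Figure D2:**
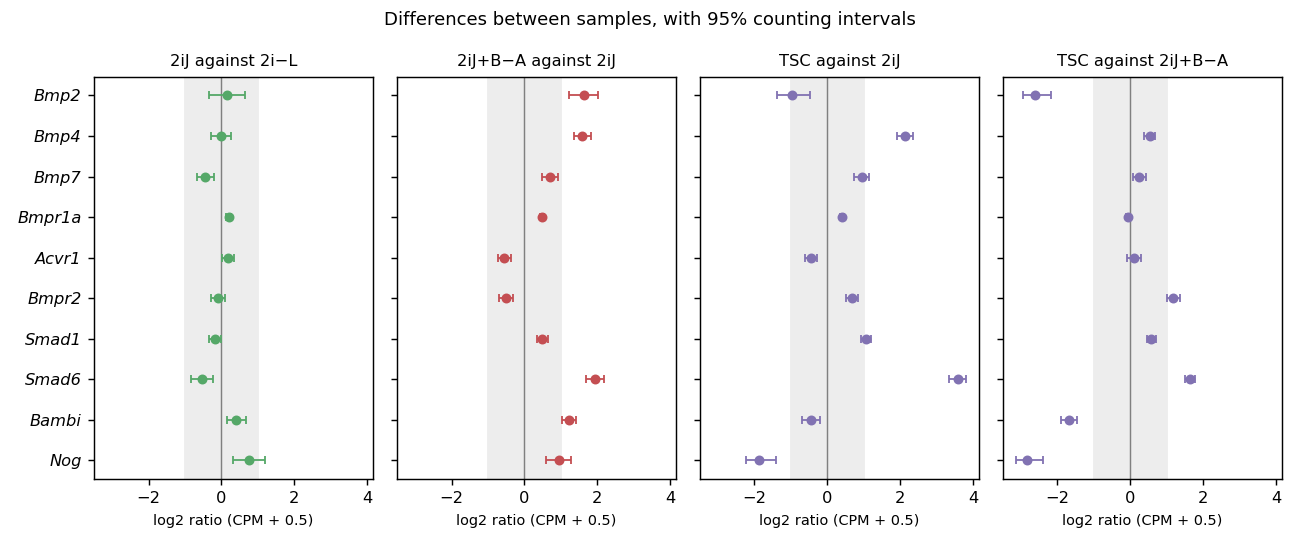
Log2 ratios of CPM + 0.5 for the 10 members in the 4 comparisons, with bars for 95% Clopper–Pearson counting intervals and grey for ratios under 2‐fold. Smad6, Bmp2, Bmp4 and Bambi lie to the right of the grey band in 2iJ+B−A against 2iJ, while Nog, Bmp2 and Bambi lie to the left of it in TSC against 2iJ+B−A.

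Between 2iJ and 2i−L, which asks what blocking JAK added, 0 of the 10 members were past the limit, and the background over all genes was 2.15%. Nog, whose CPM was 2.02‐fold higher, was inside the limit through the pseudocount. The intervals of Bmp2, Bmp4 and Bmpr2 spanned 0, and the median log2 ratio of the 10 members was 0.08 against 0.01 for all genes. Between 2iJ+B−A and 2iJ, which asks what BMP4 with the ALK5 inhibitor added, 4 members (Smad6, Bmp2, Bmp4 and Bambi) were past the limit upward and 0 downward. The background was 8.97% of genes, with 5.81% upward and 3.17% downward. Of the 10 members, 8 were higher, and the median log2 ratio was 0.82 against −0.002 for all genes. The count includes Bmp2, which the filter kept because of this sample, and the members were chosen with earlier results of these data known. With 2i−L as the reference, 5 members, these and Nog, were upward and 0 downward, beside 7.93% and 4.52% of genes.

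Between TSCs and 2iJ, 3 members (Smad6, Bmp4 and Smad1) were past the limit upward and 1 (Nog) downward, where 19.4% of genes were upward and 17.6% downward. That count of 4 in 10 lay near the background, with 37.0% of all genes past the limit in either direction. Between TSCs and 2iJ+B−A, 2 members (Smad6 and Bmpr2) were upward and 3 (Nog, Bmp2 and Bambi) downward, beside 16.4% and 16.2% of genes. Bmp2 had to be lower in TSCs here, because it passed the filter through 2iJ+B−A alone. The comparisons share samples: 2iJ stands in 3 of them, and 2iJ+B−A and TSCs in 2 each. The values are therefore given side by side without a test of overlap. Of the 4 members past the limit in 2iJ+B−A, Smad6 and Bmp4 were also past it in TSCs relative to 2iJ, while Bambi and Bmp2 had TSC ratios of −0.45 and −0.98.

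Levels of different genes can be compared only per length. The lengths used merge all annotated exons of a gene, 5814 bases for Smad1 and 4829 for Acvr1. Their longest coding transcripts have 3775 and 3293 bases. Orders and ratios between genes, and shares of summed levels, thus depend on the length chosen, and no other length was tried. By CPM per kilobase of exon, Bmpr1a was the highest member in every sample, from 17.1 in 2i−L to 27.2 in 2iJ+B−A, and Bmp2 the lowest, from 0.0641 in TSCs to 1.12 in 2iJ+B−A. In 2iJ the order after Bmpr1a was Acvr1 (3.74), Bmpr2 (3.67), Smad1 (2.97), Bmp4 (2.46), Bmp7 (1.78), Bambi (1.52), Smad6 (1.21), Nog (1.14) and Bmp2 (0.262). In that order, Acvr1 and Bmpr2, Smad1 and Bmp4, Bmp7 and Bambi, Bambi and Smad6, and Smad6 and Nog had overlapping intervals. In 2iJ+B−A, Bmp4 (7.89) and Smad6 (5.07) stood directly after Bmpr1a with separate intervals, and the receptors Bmpr2 (2.55) and Acvr1 (2.53) were below Bambi (3.70), while Bmp7 (2.98) and Bmpr2 had overlapping intervals. In TSCs, Smad6 (16.2) and Bmp4 (11.5) again followed Bmpr1a (26.1), here with Smad6 ahead, and Nog (0.119) and Bmp2 (0.0641) overlapped at the bottom. Among the 14251 filtered genes with a known length, Smad6 was above 23.9% of them in 2iJ, above 46.3% in 2iJ+B−A and above 72.2% in TSCs, and Bmp4 above 33.95%, 56.2% and 63.6%. Bmpr1a was above at least 74.2% of genes in every sample.

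Summed per length, the 3 ligands came to 5.16 CPM per kilobase in 2i−L, then 4.51 for 2iJ, 12.0 for 2iJ+B−A and 15.1 for TSCs. Bmp4 and Bmp7 held equal parts in 2i−L (47.9% and 47.8%), and the Bmp4 part was 54.6% in 2iJ, then 65.8% with BMP4 and the ALK5 inhibitor, and 76.1% in TSCs. The 3 receptors summed to between 24.3 and 34.8 CPM per kilobase, a narrower range. Smad6, Bambi and Nog together were at 3.49 in 2i−L, at 3.86 in 2iJ, at 11.2 in 2iJ+B−A and at 17.4 in TSCs. Their mixture differed: Smad6 held 45.3% of it in 2iJ+B−A, with 33.1% for Bambi and 21.7% for Nog, and 93.1% in TSCs.

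**Figure D3:**
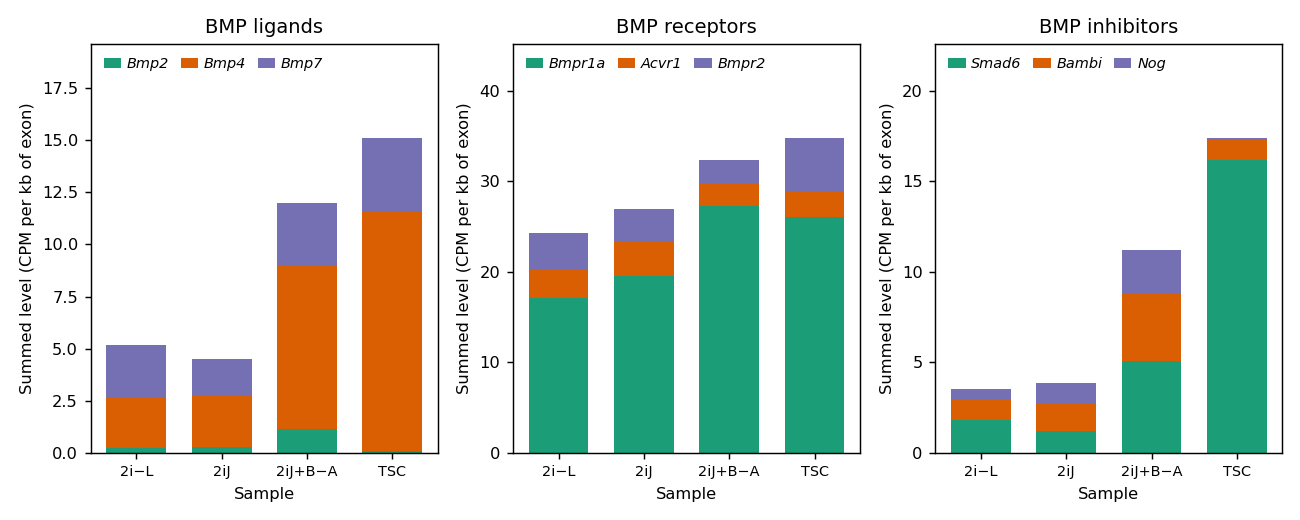
Levels per length (CPM per kilobase of exon, linear axes from 0) of the 3 ligands, 3 receptors and 3 inhibitors, stacked by sample. Ligands sum to 4.51 in 2iJ and 12.0 in 2iJ+B−A, receptors stay between 24.3 and 34.8, and in TSCs nearly all of the inhibitor bar is Smad6 (93.1%).

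Other genes of the pathway were taken from a list of 47, of which 32 passed the filter. Between 2iJ+B−A and 2iJ, 12 of the 32 were past the limit upward and 1 downward, and their median log2 ratio was 0.19. Over all genes, 5.81% were upward and 3.17% downward. The 12 include Smad9 and Atoh8, which passed the filter through 2iJ+B−A alone and so had to be higher there. Between 2iJ and 2i−L, 3 of the 32 were past the limit upward and 0 downward. The 3 were Msx1 at 2.00, Id2 at 1.18 and Id3 at 1.03. The shares over all genes were 1.23% and 0.918%. The 7 direct targets had a median log2 ratio of 0.83 in that comparison, and the counts of Atoh8, 3 in 2iJ and 1 in 2i−L, were too few to show a difference. Among the direct targets, 6 of 7 were upward in 2iJ+B−A relative to 2iJ, Atoh8 among them. Id1, Id2 and Id3, inhibitors of DNA binding by basic helix‐loop‐helix factors, had log2 ratios of 3.44, 2.98 and 2.54, although 89.5% of the Id2 transcript also matches another place in the genome. The homeobox genes Msx2 and Msx1 had 2.07 and 1.87, and Atoh8 had 1.96, with 3 counts in 2iJ and 67 in 2iJ+B−A. Id4 was inside the limit at 0.47. In TSCs relative to 2iJ, Id2 (4.41) and Id1 (1.55) were upward and Id4 (−3.85) downward, and Id3 had −0.59.

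Of 12 other ligands, 4 passed the filter. Bmp8b, Gdf6 and Bmp8a were upward in 2iJ+B−A relative to 2iJ, with log2 ratios of 2.29, 1.68 and 1.31, and higher still in TSCs, at 5.09, 5.54 and 2.29. Bmp8b was at 2.97 CPM in 2iJ, at 16.5 in 2iJ+B−A and at 117 in TSCs. Bmp8a and Bmp8b are near relatives, and 37.9% and 29.7% of their transcripts also match another place, so their counts are uncertain. Gdf3, a ligand of pluripotent cells, was at 79.4 CPM in 2iJ, at 49.7 in 2iJ+B−A and at 0.0570 in TSCs, where 2 counts are below the detectable signal.

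Among the other receptors, Bmpr1b, another type I receptor for BMP2 and BMP4, was lower in 2iJ+B−A and in TSCs than in 2iJ, while Bmpr1a was higher in both. It was at 3.88 CPM in 2i−L, 6.67 in 2iJ and 0.985 in 2iJ+B−A, where the log2 ratio to 2iJ was −2.27 (interval −2.63 to −1.90), and had 2 counts in TSCs. Acvrl1 (ALK1) and Acvr2a, a type II receptor, were within the limit in 2iJ+B−A and upward in TSCs, with log2 ratios to 2iJ of 2.96 and 1.08. The co‐receptor Rgma was upward in 2iJ+B−A (1.15) and downward in TSCs (−1.24), both relative to 2iJ. Relative to 2i−L, Rgma in 2iJ+B−A was inside the limit at 0.89.

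Among the other SMADs, Smad9, a relative of Smad1, was the only one of 3 past the limit in 2iJ+B−A, from 0.903 to 5.08 CPM (log2 ratio 1.99), and it was at 0.228 CPM in TSCs. Like Bmp2, it passed the filter through 2iJ+B−A alone. Of the other intracellular inhibitors Smad7, Smurf1 and Smurf2, none was past the limit in 2iJ+B−A. The inhibitory SMADs therefore differed there: Smad7 had a log2 ratio of −0.15 (interval −0.26 to −0.05), while that of Smad6 was 1.94. In TSCs, Smad7 was at 0.83 and Smurf2, a ubiquitin ligase that acts on receptors and SMADs, at 1.05.

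Among 14 other secreted antagonists, 7 passed the filter, and Nbl1 (2.61) was upward in 2iJ+B−A relative to 2iJ. Nbl1 went from 1.31 to 10.5 CPM and was at 1.85 CPM in TSCs. In TSCs relative to 2iJ, Fstl3 was upward (3.85), and Fst (−2.31) and Fstl1 (−1.10) were downward. Fst had only 4 counts in TSCs (0.114 CPM), below the 0.5 CPM added, so the size of its ratio is uncertain. Fst and Fstl3 encode follistatin proteins, which bind Activin more tightly than BMPs. The log2 ratios of TSCs to 2iJ for the 32 genes had a median of 0.34, with 9 upward and 6 downward. Over all genes, 19.4% were upward and 17.6% downward in that comparison.

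**Figure D4:**
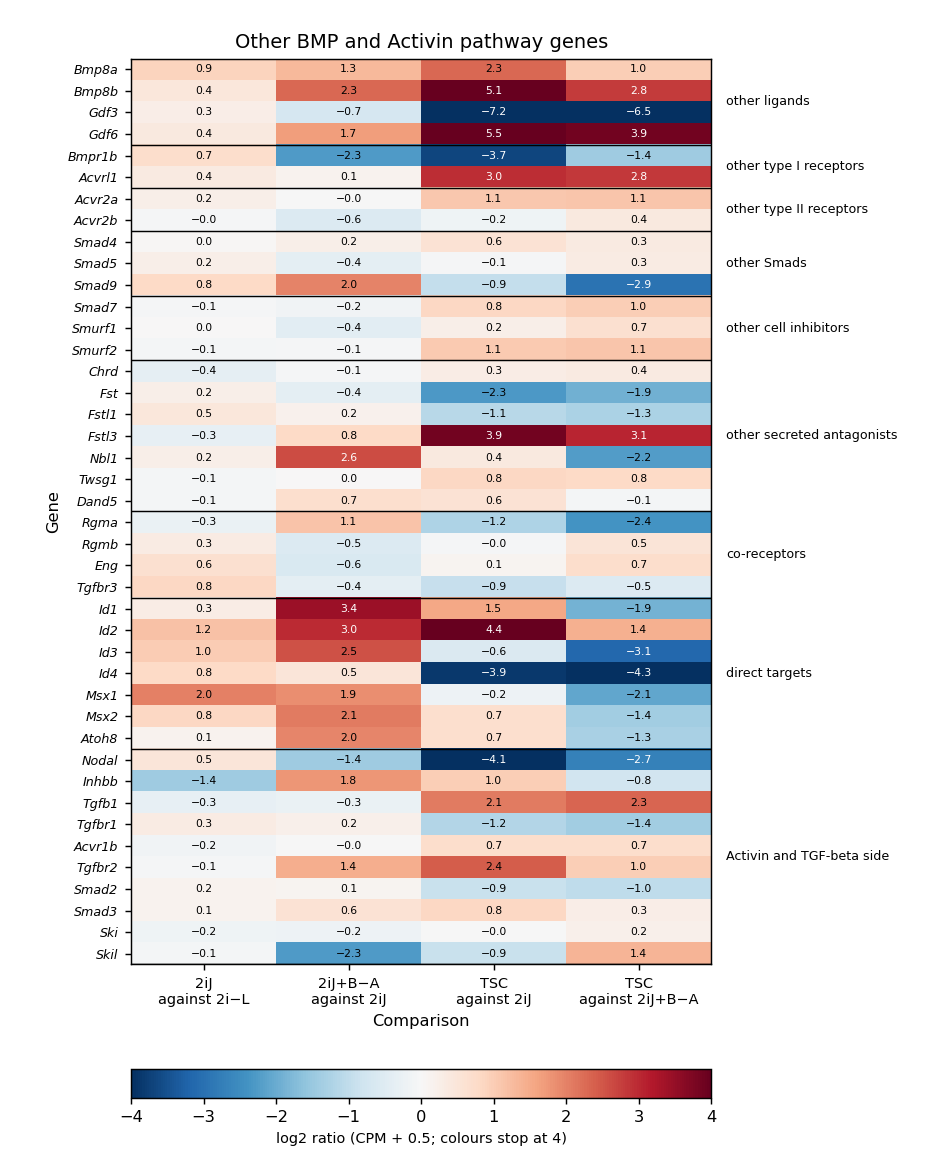
Log2 ratios (CPM + 0.5) of the other BMP genes and of the Activin and TGF‐β genes that passed the filter, by class, in the 4 comparisons, with the value written in each cell. Red marks higher and blue lower levels in the first‐named sample, and colors stop at 4. Of the 7 direct targets, 6 are past 1 in 2iJ+B−A against 2iJ, and Bmpr1b and Skil are below −2 there.

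The profiles most like those of 3 members over the 4 samples were sought among all 14263 genes, by the root mean square difference of log2 levels after centering each gene on its mean. Closest to Bmp4 were Mex3b (0.02), C1ql2 (0.06) and Chst8 (0.06). C1ql2 was at 0 counts in 2i−L and at 0.0291 CPM in 2iJ. Both levels are below the 0.5 CPM added before taking logs, so its distance depends on that value. Mex3b, an RNA‐binding protein gene, was at 9.98, 9.93, 32.2 and 45.8 CPM in 2i−L, 2iJ, 2iJ+B−A and TSCs. Closest to Smad6 were Hrk (0.10), Efhd2 (0.13) and Sbsn (0.14), which all had their highest level in TSCs and their lowest in 2iJ. Hrk was at 0.331 CPM in 2i−L and 0.175 in 2iJ, below the 0.5 CPM added before taking logs, so its distance depends on that value. Closest to Bambi were the cadherin gene Cdh11 (0.04), Grid1 (0.05) and Rhbdl3 (0.05), which were all highest in 2iJ+B−A. Among the members themselves, the nearest pair was Bmp7 and Smad1 (0.16), whereas Bmp4 and Smad6 differed by 0.54 and Bmp2 and Nog by 0.34. With 4 samples in all, these distances are descriptions.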

How the data were processed

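Poly‐A RNA libraries from a directional kit were sequenced as read pairs for 4 samples. The authors trimmed reads with TrimGalore and cutadapt at a quality cutoff of 20, mapped them to NCBIM37 with STAR 2.4.2a and deposited counts of read pairs per Ensembl gene, without normalization. CASAVA 1.8.2 is also named in the submitters' processing notes. The annotation release was not given in the sources used here. The batch adjustment of the study is not in these whole numbers.

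The count column of the reverse strand was used, which was 29.1 to 32.1 times the opposite one. Lines naming no gene were left out of library sizes: read pairs outside genes were 7.04% to 8.40% of those listed, ambiguous ones 0.890% to 0.943% and those mapping to several places 6.72% to 7.01%. Of 37620 identifiers, 37205 were found in GENCODE vM1, which also gave exon lengths and coordinates. TMM factors came from edgeR 4.0.16 and alternative size factors from DESeq2 1.42.0, in R 4.3.3. Under Python 3.11.15, matplotlib 3.10.9, pandas 2.3.3, scipy 1.17.1 and numpy 2.4.6 were used. Transcripts were aligned to NCBIM37 with minimap2 2.31, and those of the 10 members matched nowhere else. The filter kept every gene that reached 1 CPM in any sample. The members and gene lists were chosen with earlier results of these data known. A listed gene that is not reported here was left out of the list counts. All members are named, other pathway genes are named where past 2‐fold in 2iJ+B−A or TSCs against 2iJ, up to 6 per class, and the 3 nearest profiles are given for Bmp4, Smad6 and Bambi. Msx1, Smad7 and Smurf1 were named outside this rule, after their values were seen. Levels were compared with 0.1 and 1 CPM pseudocounts, a 5 CPM filter, no filter, a 1.5‐fold limit, 2i−L as the reference, unstranded counts and other scalings as alternatives. The scripts were tested on simulated counts. No model with replicates could be fitted with 1 sample per condition.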

Additional observations from a re-analysis of the deposited data

Results flagged for a closer look

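Counts on the strand opposite to a member, which the comparisons do not use, exceeded 3 counts, the smallest signal taken as detectable, in 10 cases. For Bmpr1a there were 6 in 2i−L, then 17 for 2iJ, 16 for 2iJ+B−A and 19 for TSCs. Bmp7 had 8 in 2i−L and 4 in 2iJ+B−A, and Smad1 had 4 in 2i−L and 7 in TSCs. Bmpr2 had 5 in 2iJ and Smad6 had 4 in TSCs. The highest opposite share among the members was 2.37%, for Bmp7 in 2i−L, and the share over all genes was between 3.02% and 3.32% per sample.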

How the results depend on the processing

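No paired analysis was possible because each condition had 1 sample, and no sample could be left out. A limit of 1.5‐fold in place of 2‐fold gave 1 member between 2iJ and 2i−L and 7 between TSCs and 2iJ, and over all genes 1325 (2iJ to 2i−L), 2944 (2iJ+B−A to 2iJ), 8040 (TSCs to 2iJ) and 7449 (TSCs to 2iJ+B−A). Over all genes, those past 2‐fold between 2iJ and 2i−L numbered 652 with a pseudocount of 0.1 CPM, 181 with 1 CPM and 192 with a filter of 5 CPM, against 306. That filter left 3 members past the limit between TSCs and 2iJ+B−A, because it removes Bmp2 and Nog. Other counts of members stayed within 1.5 times, and the 4 members of 2iJ+B−A ranged from 3 to 6. Ratios of single members moved beyond their counting intervals in 14 of 20 cases with 2i−L as the reference, in 4 and 3 of 40 with the other pseudocounts, in 1 of 40 with library size only and in 0 of 40 with DESeq2 size factors or unstranded counts. No ratio past the limit changed its sign. Bmp2 and Nog had 8 counts each in TSCs, so their ratios there depend most on the pseudocount.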

Other observations

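Genes of the Activin and TGF‐β side, on which the ALK5 inhibitor acts, were listed as a contrast to the BMP genes. Of 12, 10 passed the filter, and between 2iJ+B−A and 2iJ 2 were past the limit upward and 2 downward, with a median log2 ratio of 0.06. Over all genes, the shares were 5.81% upward and 3.17% downward. Skil, a repressor of SMAD signaling that Activin and TGF‐β switch on, went from 183 to 38.1 CPM (−2.25), and Nodal from 125 to 46.1 CPM (−1.44). Nodal was at 89.4 CPM in 2i−L. With 2i−L as the reference, the log2 ratio of Nodal in 2iJ+B−A was −0.95, inside the limit, and that of Skil −2.32. Inhbb, which encodes a subunit of Activin B, was at 2.11 CPM in 2i−L, 0.466 in 2iJ and 2.77 in 2iJ+B−A, a log2 ratio to 2iJ of 1.76 (interval 1.31 to 2.16), and its low level in 2iJ set that difference. Tgfbr2 went from 1.40 to 4.66 CPM (1.44). In TSCs relative to 2iJ, Tgfbr2 (2.44) and Tgfb1 (2.08) were upward, and Nodal (−4.13) and Tgfbr1 (−1.18), which encodes ALK5 itself, were downward.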
